A study of Homo sapiens with 7 samples.

Results

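The clustered protocadherins are encoded on chromosome 5 by 53 protein-coding genes of GENCODE release 44, chosen by their symbols (PCDHA, PCDHB or PCDHG followed by a digit or a letter) among 20033 protein-coding genes. They form the alpha cluster of 15 genes, the beta cluster of 16 genes and the gamma cluster of 22 genes, in that order along the chromosome, and 53 of 53 lie on the plus strand. H3K9me3 and H3K27me3, trimethylation of histone H3 on lysine 9 and lysine 27, were profiled by ChIP-seq in HCT116, a human colorectal carcinoma cell line that carries a doxycycline-inducible short hairpin RNA against UHRF1, a cofactor of maintenance DNA methylation. The cells were 2 clonal lines, each grown from 1 clone, and were collected at day 14 without doxycycline, so that every sample described here is a baseline sample carrying the uninduced hairpin. There were 2 samples of Clone 3 H3K9me3, 2 of Clone 3 H3K27me3, 2 of Clone 6 H3K27me3 and 1 input of Clone 3. For Clone 6, H3K9me3 alone was not analysed here and is represented by the domains that the clones share.

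Clustered protocadherins are cell-surface adhesion proteins best known in neurons, where each cell expresses a small choice of them and the combination marks the cell for self-recognition. In the alpha and gamma clusters each gene has its own promoter and a long variable first exon, which is spliced to constant exons at the end of the cluster, whereas the beta genes lie in single exons. Many of the promoters carry a conserved element with the core CGCT and bind CTCF and cohesin. The C-type members PCDHAC1, PCDHAC2, PCDHGC3, PCDHGC4 and PCDHGC5 sit at the ends of the alpha and gamma clusters and are known to be regulated differently from the alternate members.

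Domains were called by the authors on broad enrichment over input and deposited as 5 sets, namely Clone 3 H3K9me3, Clone 3 H3K27me3, Clone 6 H3K27me3 and the domains of each mark shared by the clones. Replicates had been merged before deposition. No replicate error can therefore be attached to a count or a length, the methods state a minimum of read pairs per library but the depth reached by each sample is not given in the sources used here, and the comparisons below are descriptions without a test. A domain call covers everything between its edges, so the mark at a single gene inside a domain was not measured, and neither was the share of cells or alleles that carry it. The members are neighbours that share domains and, in the alpha and gamma clusters, exons, and they are not independent of each other.

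H3K9me3 domains held the start sites of 36 of the 53 members (67.9%) in Clone 3, against 3.35% of all protein-coding genes. The alpha cluster was the least covered, with 6 of 15 start sites in a domain (40.0%), and in the upper 50% of domains by the lower of their 2 scores the alpha count was 0. The beta cluster had 11 of 16 (68.8%) and the gamma cluster 19 of 22 (86.4%), which that choice of domains left at 11 and 19. By the first score alone the domain over the beta and gamma genes ranked 307 of 567 and lay in the lower 50% as well. The clone-shared H3K9me3 set gave the same 36 start sites, against 3.24% of all genes, and its domains at the locus had identical edges. The clone-shared set of each mark was drawn from the domains of the clones, Clone 3 among them. It is not independent of the clone sets. No H3K27me3 domain touched the locus. The start sites of 0 of 53 members lay in an H3K27me3 domain of Clone 3, of Clone 6 or of the clone-shared set, where 6.44%, 7.97% and 5.32% of all genes did.

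The members inside and outside formed unbroken runs. The 6 members PCDHA1 to PCDHA6 lay in a first domain. The next 14 members, PCDHA7 to PCDHA13, PCDHAC1, PCDHAC2 and PCDHB1 to PCDHB5, lay outside. A second domain held the 30 members that follow, which are the 11 beta genes PCDHB6 to PCDHB16 and the 19 gamma genes of the A and B types, PCDHGA1 to PCDHGA12 and PCDHGB1 to PCDHGB7. The last 3 members, PCDHGC3, PCDHGC4 and PCDHGC5, lay outside. All 5 C-type members were therefore outside the H3K9me3 domains, and PCDHB1, the first gene of the beta cluster, was outside as well. The map of the locus shows these runs with the domains of the 5 sets.

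**Figure D1:**
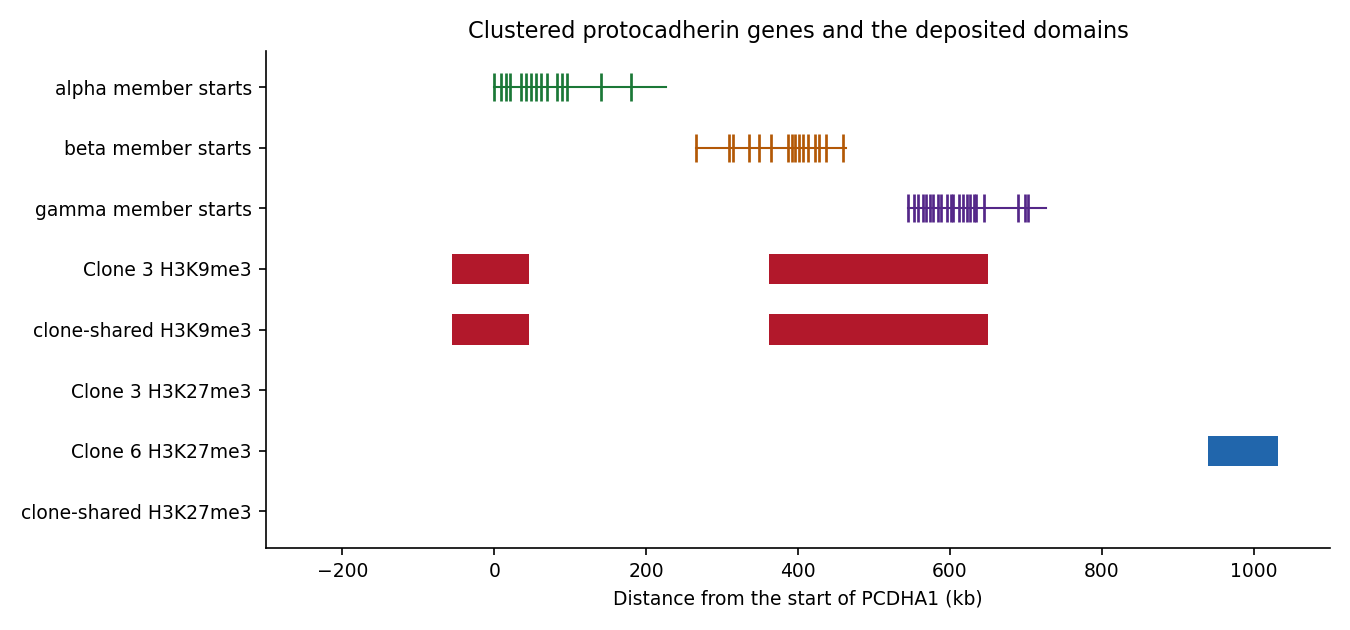
Start sites of the alpha, beta and gamma members (ticks, with a line over the span of each cluster) and the deposited domains of the 5 sets (bars), by distance from the start of PCDHA1 in kb. The 2 H3K9me3 domains are the same in Clone 3 and in the clone-shared set, and the only H3K27me3 domain in the window, in Clone 6, lies beyond the gamma cluster.

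The alpha domain, chr5:140731001-140832000 on hg38, was 101 kb long. Its upstream edge lay 55.1 kb before PCDHA1 and 24.3 kb after the end of ZMAT2, the nearest protein-coding gene before the locus. Its downstream edge fell between neighbouring alternate alpha genes. PCDHA6 started 4.04 kb inside it and its first exon ended 1.51 kb before the edge, whereas PCDHA7 started 2.25 kb beyond it. The beta-gamma domain, chr5:141148001-141436000, was 288 kb long and began 316 kb downstream of the alpha domain. PCDHB6 started 2.06 kb inside its upstream edge, and PCDHB5 lay 12.8 kb outside. At the downstream edge PCDHGA12 was the last member inside, with its start 5.49 kb and the end of its first exon 2.82 kb before the edge, and PCDHGC3 started 39.9 kb beyond it. Domain edges were placed by the authors on a grid of 1 kb.

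Promoter sequence of members on either side of these edges is shown to let the genes inside and outside the domains be compared base by base. Each sequence holds the 100 bases before the RefSeq start site (GRCh38.p14, plus strand, 5′ to 3′). Capitals mark every match to CGCT, the core of the conserved promoter element, on the strand of the gene. Which match, if any, lies in that element was not determined. PCDHA6 (chr5:140827860-140827959, inside) and PCDHA7 (chr5:140834169-140834268, outside) flank the downstream edge of the alpha domain. PCDHB5 (chr5:141135106-141135205, outside) and PCDHB7 (chr5:141172544-141172643, inside) lie on either side of the upstream edge of the beta-gamma domain, and PCDHGA11 (chr5:141420951-141421050, inside) and PCDHGC3 (chr5:141475866-141475965, outside) on either side of its downstream edge. PCDHAC1 (chr5:140926199-140926298, outside) is a C-type member of the alpha cluster.
PCDHA6: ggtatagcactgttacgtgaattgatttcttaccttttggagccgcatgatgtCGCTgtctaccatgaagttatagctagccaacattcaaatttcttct
PCDHA7: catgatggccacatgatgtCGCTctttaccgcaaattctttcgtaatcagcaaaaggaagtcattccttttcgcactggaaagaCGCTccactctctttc
PCDHAC1: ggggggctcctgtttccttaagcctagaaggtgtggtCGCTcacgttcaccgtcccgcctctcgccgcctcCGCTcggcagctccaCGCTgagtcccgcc
PCDHB5: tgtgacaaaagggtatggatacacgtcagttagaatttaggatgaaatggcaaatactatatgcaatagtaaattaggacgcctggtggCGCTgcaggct
PCDHB7: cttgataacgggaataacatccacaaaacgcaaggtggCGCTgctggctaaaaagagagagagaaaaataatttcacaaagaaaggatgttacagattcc
PCDHGA11: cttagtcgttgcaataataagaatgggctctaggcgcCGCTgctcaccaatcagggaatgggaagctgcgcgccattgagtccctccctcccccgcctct
PCDHGC3: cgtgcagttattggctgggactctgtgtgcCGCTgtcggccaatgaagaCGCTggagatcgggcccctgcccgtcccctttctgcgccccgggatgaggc

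A match to the core was found on both sides of every edge shown. Counting -1 as the base before the RefSeq start, the match began at -47 in PCDHA6, at -62 in PCDHB7 and at -63 in PCDHGA11, which are inside. Outside, PCDHA7 had it at -81 and -16, PCDHGC3 at -70 and -51, and PCDHB5 at -11. RefSeq promoter windows of 250 bases before to 50 after the start were matched for 47 of the 53 members, and the 6 others are PCDHA3, PCDHA13, PCDHB6, PCDHB11, PCDHGA12 and PCDHGC5. On the strand of the gene, from 100 to 31 bases before the start, CGCT was present in 43 of 47 members (91.5%) and in 20.0% of 27305 promoters. PCDHA9, PCDHB5, PCDHB8 and PCDHGB2 did not hold it in that window. The window is counted from the RefSeq start, which in PCDHGB2 lies 142 bp downstream of the GENCODE start used for the domain calls. The CGCT match of PCDHGB2 began at -199 from its RefSeq start, so its absence depends on the start chosen. In PCDHA9 the RefSeq start lies 610 bp downstream of the GENCODE start. The bases around that GENCODE start were therefore not searched. Members inside H3K9me3 domains held CGCT from 100 to 31 bases before the start in 30 of 32 promoters and members outside in 13 of 15. Over the whole windows and both strands CGCT was present in 46 of 47 members, all but PCDHA9, and in 68.8% of all promoters. A match is a description of the letters, and binding of a factor was not measured.

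Longer words around the core were held by promoters of 1 cluster each. The word GTGGCGCT, searched on both strands of the whole window, was held by 13 of 14 beta promoters, 0 of 13 alpha and 0 of 20 gamma promoters, and by 1.15% of all promoters. Of the beta promoters, 9 of 9 inside the domain and 4 of 5 outside held it, and PCDHB1 was the one without it. ATGTCGCT was held by 9 of 13 alpha promoters, 0 beta and 0 gamma promoters and 0.264% of all. These were 5 of 5 alpha promoters inside and 4 of 8 outside, where PCDHA9, PCDHA11, PCDHAC1 and PCDHAC2 did not hold it. For PCDHA9 and PCDHA11 the RefSeq start lay 610 and 774 bp downstream of the GENCODE start, which their windows did not reach. GCCGCTGT was held by 11 of 20 gamma promoters, 0 alpha and 0 beta promoters and 1.57% of all, with 9 of 18 gamma promoters inside and 2 of 2 outside. No difference between promoters inside and outside was tested. Each of the 3 words contains CGCT and was picked because many promoters of 1 cluster hold it, so its frequency there is a description.

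Among the alpha genes, the distance from the start site to the domain edge fell with gene order from 45.9 kb in PCDHA1 through 37.1 kb in PCDHA2, 25.0 kb in PCDHA4 and 10.4 kb in PCDHA5 to 4.04 kb in PCDHA6. Outside the domain, PCDHA8 started 9.19 kb from the edge and PCDHA13 50.1 kb from it. The C-type member PCDHAC1 was 94.3 kb and PCDHAC2 134 kb from the nearest domain, the largest distance of the 53 members. Across the span of the alpha cluster, chr5:140786136-141012347 (226 kb), the domain covered 45.9 kb (20.3%).

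Beta genes inside the domain lay between 2.06 kb (PCDHB6) and 97.4 kb (PCDHB15) from an edge, with a median of 44.4 kb over 11 genes. The 5 outside lay between 12.8 kb (PCDHB5) and 96.6 kb (PCDHB1) from it. The domain covered 101 kb of the 198 kb of the beta cluster, chr5:141051374-141249365 (51.2%).

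Gamma genes inside ranged from 5.49 kb (PCDHGA12) to 105 kb (PCDHGA1) from an edge, with a median of 53.3 kb over 19 genes, and genes of the A and B types were interspersed within the domain. PCDHGC3, PCDHGC4 and PCDHGC5 were 39.9 kb, 49.0 kb and 53.1 kb beyond it. The domain covered 105 kb of the 182 kb of the gamma cluster, chr5:141330514-141512977 (57.8%). Over the 727 kb from PCDHA1 to the end of the gamma cluster the covered length was 334 kb (45.9%). The plot of distances to the edge places the 53 members on 1 scale and shows that no C-type member was close to an edge.

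**Figure D2:**
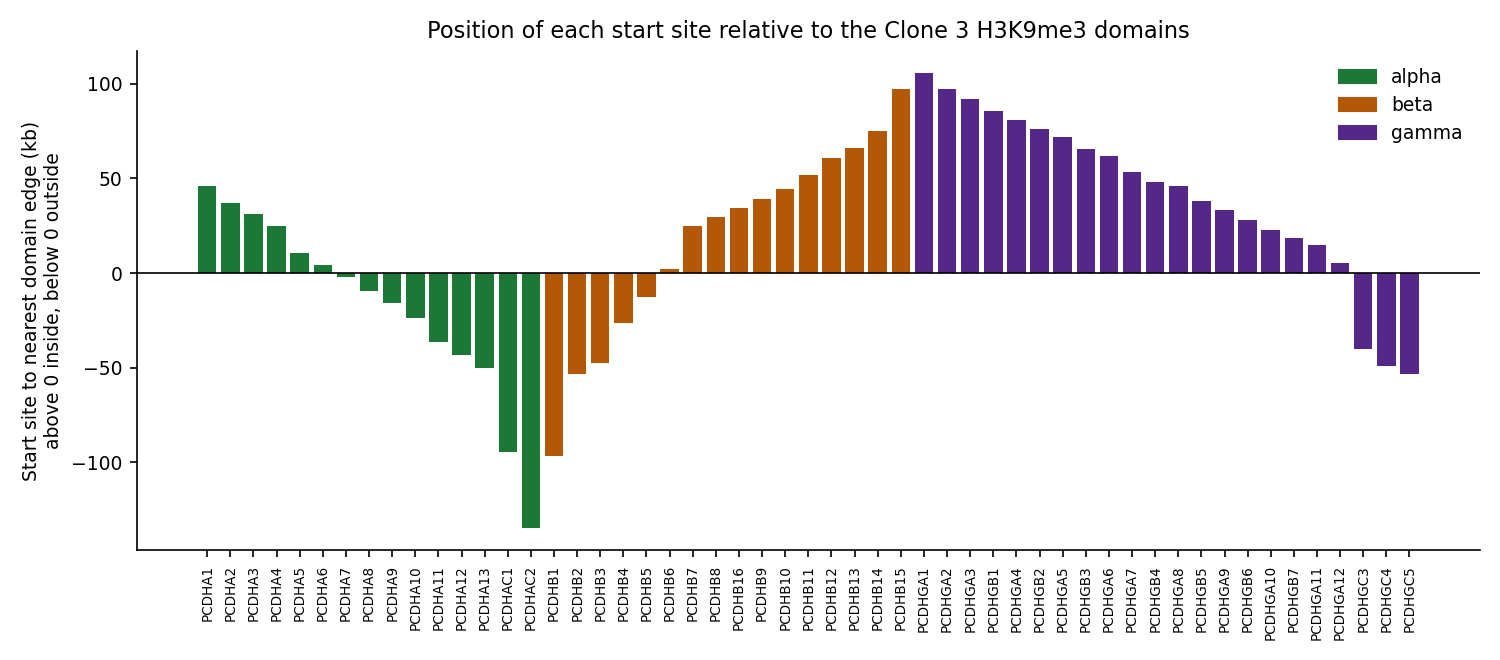
Distance in kb from each member's start site to the nearest edge of a Clone 3 H3K9me3 domain, positive inside a domain and negative outside, with members in chromosome order and coloured by cluster. PCDHA6, PCDHA7 and PCDHB6 lie within 5 kb of an edge, and the C-type members lie between 39.9 and 134 kb outside.

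Whole gene bodies gave another picture, because alpha and gamma genes run on to their constant exons. At least 50% of the body lay in a Clone 3 H3K9me3 domain for 16 of 53 members, against 3.42% of all genes. These were 0 of 15 alpha, 11 of 16 beta and 5 of 22 gamma genes, and the counts were the same in the clone-shared set, where the share of all genes was 3.29%. The gamma count was 9 with domain edges moved outward by 10 kb and 2 with edges moved inward. For the H3K27me3 sets the count was 0 of 53, against 6.76% of all genes in Clone 3, 7.77% in Clone 6 and 5.48% in the clone-shared set. The 11 beta genes were inside at their full length. The 6 alpha genes with their start inside had between 2.19% (PCDHA6) and 20.3% (PCDHA1) of their body inside, and the other 9 had 0%. Among the 19 gamma genes with their start inside, the share fell from 57.8% in PCDHGA1 to 6.66% in PCDHGA12, and it crossed 50% between PCDHGA4 (51.3%) and PCDHGB2 (49.7%). The first exon holds the variable part of each alpha and gamma protein and is the only exon of the beta genes. It lay whole in a domain for the same 36 members whose start sites did, and for no member did an edge cut it.

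**Figure D3:**
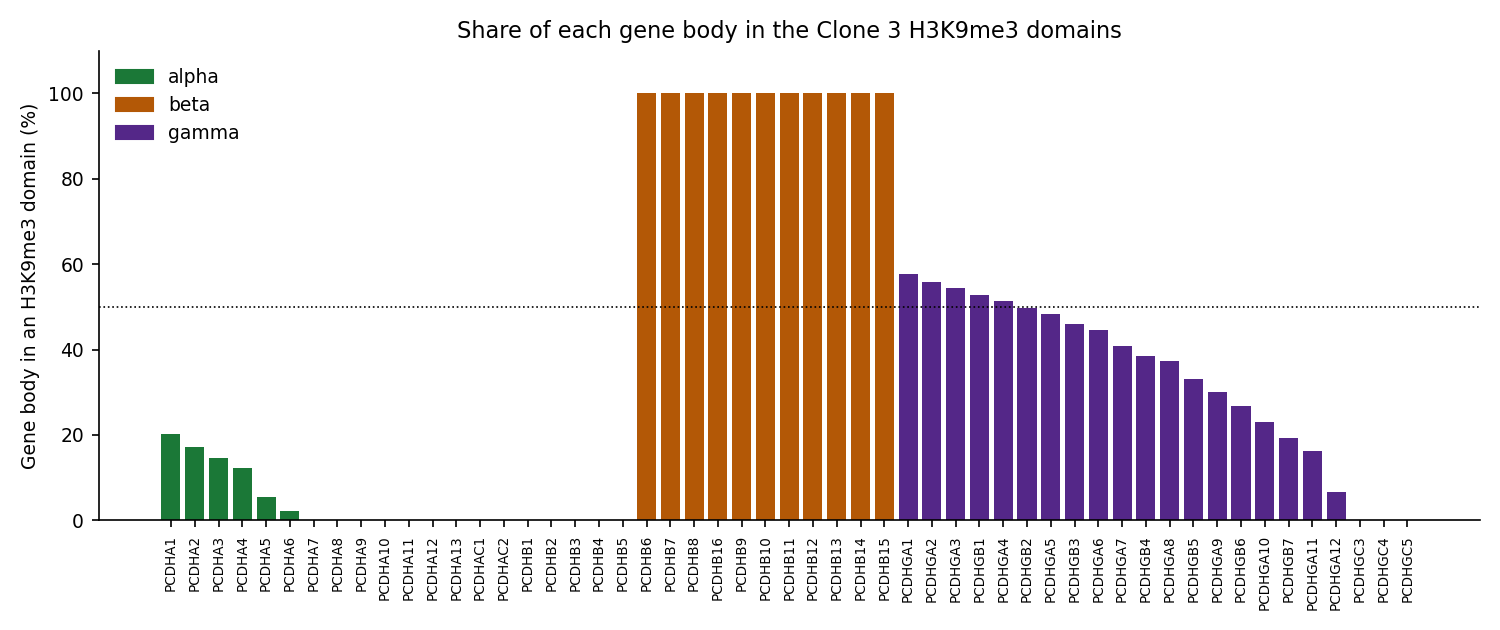
Percent of each member's gene body in a Clone 3 H3K9me3 domain, in chromosome order and coloured by cluster, with a dotted line at 50%. Beta bars stand at 100% or at 0%, alpha bars reach 20.3% and gamma bars fall stepwise from 57.8%.

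The constant exons lay outside every domain. The alpha constant part begins with an exon at chr5:140978949-140979007, which is the second exon of 15 of 15 alpha genes, and lay 147 kb beyond the alpha domain. The gamma constant part begins at chr5:141494807-141494865, the second exon of 22 of 22 gamma genes, and lay 58.8 kb beyond the beta-gamma domain. Over the 33.4 kb of the alpha and the 18.2 kb of the gamma constant part, 0 bp fell in any of the 5 sets. A body share below 100% in these clusters is thus fixed in part by where the shared end lies.

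Noncoding relatives followed their positions. The pseudogenes PCDHB17P, PCDHB18P, PCDHB19P and PCDHGB8P started in the beta-gamma domain. PCDHA14 and the antisense gene PCDHB1-AS1 lay between the domains, and PCDHGB9P lay beyond the beta-gamma domain, between PCDHGA12 and PCDHGC3.

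Among the 567 Clone 3 H3K9me3 domains, the beta-gamma domain ranked 222 by length and 3 by the number of protein-coding start sites it held. Its 33 start sites were the 30 members, TAF7, a subunit of the general transcription factor TFIID, SLC25A2, a mitochondrial ornithine carrier, and the unnamed gene ENSG00000279983. The domains with more starts, on chromosomes 19 and 21, held 47 and 34 start sites over 1960 kb and 1129 kb. The alpha domain, with 6 starts, all of them members, ranked 312 by length and 21 by starts. The median domain was 140 kb long, and 378 of the 567 held no start site. The plot of start sites against domain length shows the beta-gamma domain above the domains of similar length.

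**Figure D4:**
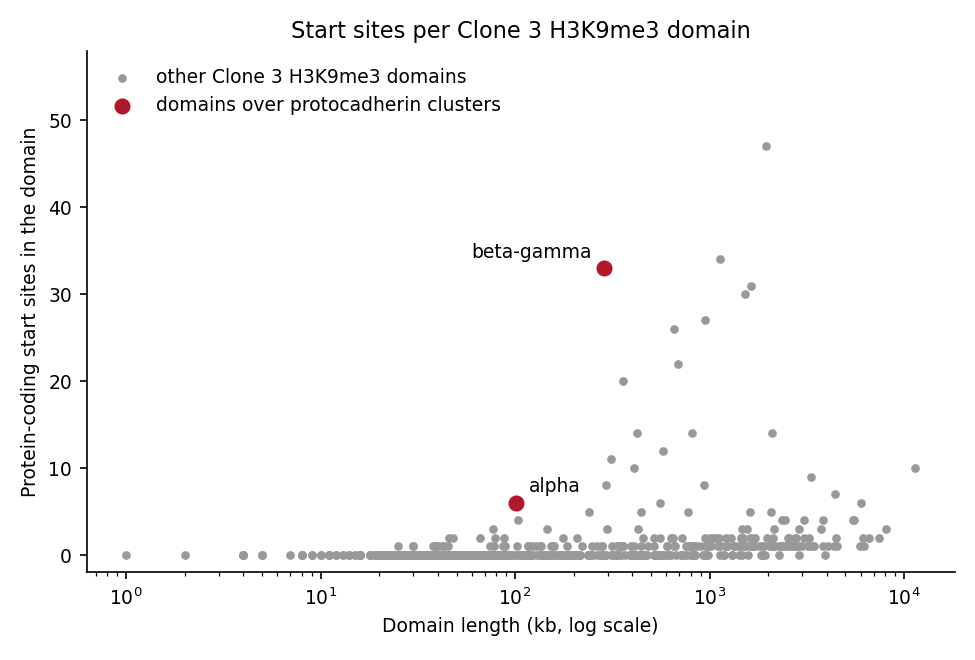
Number of protein-coding start sites in each of the 567 Clone 3 H3K9me3 domains against its length in kb on a log scale, with the alpha and beta-gamma domains in red. The beta-gamma domain holds 33 start sites in 288 kb.

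By the 2 scores that the authors' set gives each domain, for which the sources used here name neither a scale nor a replicate, both domains stood near or below the middle. The alpha domain had scores of 20.3 and 96.7, ranks 416 and 320 of 567. The beta-gamma domain had 46.0 and 248, ranks 307 and 244. The median of the lower score was 32.9 over the set, which the alpha domain did not reach.

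The locus was isolated on its chromosome. The previous H3K9me3 domain on chromosome 5 ended 76.6 Mb upstream and the next one began 9.43 Mb downstream. Chromosome 5 held 34 of the Clone 3 H3K9me3 domains, with 68 of its 882 protein-coding start sites (7.71%). Of these 68, 36 (52.9%) were clustered protocadherins, and without the members the share was 32 of 829 genes (3.86%). Among the 38 other protein-coding genes within 1 Mb of the members, the start sites of TAF7, SLC25A2 and ENSG00000279983, which lie inside the beta-gamma domain, were the 3 in an H3K9me3 domain. DIAPH1, an actin nucleator and the nearest gene beyond the gamma cluster, started 183 kb outside.

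H3K27me3 domains lay at different distances from the members in the clones. In Clone 6 the nearest domain downstream, chr5:141726001-141818000, began 213 kb beyond the gamma cluster and held no start site of a protein-coding gene, and the nearest upstream, chr5:139990001-140072000, ended 714 kb before PCDHA1 and covered the start site of NRG2, which encodes a neuregulin. In Clone 3 the nearest domains were 3.16 Mb upstream and 2.47 Mb downstream. The start sites of members were 237 to 810 kb from a Clone 6 domain and 2491 to 3179 kb from a Clone 3 domain. The call was the same for the 53 members in both clones, outside H3K27me3. Whether the distances differ beyond replicate error was not tested.

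Of a chosen list of 12 protocadherin genes outside the clusters, 2 started within H3K9me3 domains of Clone 3, where the share of all genes was 3.35%. They were PCDH15, which serves in the tip links of inner ear hair cells, and PCDH17. The start site of PCDH8 lay in an H3K27me3 domain of Clone 3 and of Clone 6, and that of PCDH19 in one of Clone 6. In Clone 3, 97.2% of the body of PCDH19 lay in an H3K27me3 domain that ended short of its start, so for PCDH19 the clones differed at the start site and not in the call by at least 50% of the body. Of 23 genes for proteins that act on the clusters or on these marks, among them CTCF, the cohesin subunits RAD21, SMC1A and SMC3, the H3K9 methyltransferase SETDB1, SMCHD1, DNMT1, DNMT3B and EZH2, 0 started in an H3K9me3 domain of Clone 3, a count near the 3.35% of all genes for a list of this size. LRIF1, a partner of SMCHD1, was the 1 of 23 that started in an H3K27me3 domain of Clone 3, where 6.44% of all genes did. Its start lay outside the H3K27me3 domains of Clone 6, at -4.04 kb from the nearest edge, with negative values outside.

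The members lay in CpG-rich stretches. The alpha domain held 16.1 CpGs per kb and the beta-gamma domain 20.9, ranks 44 and 26 of 567, against 7.19 in the whole Clone 3 H3K9me3 set and 10.0 in the genome. CpGs with no other CpG closer than 20 bp in either direction were counted as low-density. They amounted to 28.2% of CpGs in the alpha domain and 24.3% in the beta-gamma domain, against 63.8% in the set, and 4 and 3 of the 567 domains had a lower share. The 316 kb between the domains, which hold 14 members, had 13.9 CpGs per kb and 31.3% low-density CpGs, and the 77.0 kb from the beta-gamma domain to the end of the gamma cluster had 16.7 per kb and 34.3%. CpG content was thus above the genome level inside and outside the domains of the locus.

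First exons of the members held more than 50% of the CpGs in both domains and in the interval between them. In the alpha domain, 6 first exons took up 15.0% of the length and held 65.2% of the CpGs. In the beta-gamma domain, 30 first exons took up 32.0% and held 65.9%. Without them the alpha domain had 6.58 CpGs per kb with 67.1% low-density CpGs, and the beta-gamma domain 10.5 per kb with 42.3%. Between the domains the first exons held 52.1% of the CpGs, with 7.80 per kb left without them. From the beta-gamma domain to the end of the gamma cluster they held 24.6%, with 14.0 per kb left. The plot of CpG density gives the 10 kb windows across the locus, with peaks both at first exons and in windows that hold none.

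CpG density of first exons overlapped between members inside and members outside in each cluster. Alpha first exons had a median of 69.7 CpGs per kb over 6 members inside and 73.3 over 9 outside, beta first exons 36.3 over 11 and 40.8 over 5, and gamma first exons 51.6 over 19 and 34.4 over 3. Alpha values ranged from 66.0 (PCDHA5) to 75.6 (PCDHA6) inside and from 43.8 (PCDHAC2) to 78.5 (PCDHA9) outside. PCDHA6 and PCDHA7, on either side of the edge, had 75.6 and 71.7. Beta first exons ranged from 28.5 (PCDHB13) to 47.0 (PCDHB6) inside and from 13.3 (PCDHB1) to 44.6 (PCDHB5) outside. Gamma first exons ranged from 31.2 (PCDHGA9) to 65.0 (PCDHGA12) inside, and PCDHGC3, PCDHGC4 and PCDHGC5 had 58.5, 34.4 and 29.0. The median share of low-density CpGs in beta first exons was 18.1% inside and 10.4% outside, with ranges of 9.87% to 23.4% and 8.98% to 37.7%. In alpha first exons it was 7.66% and 6.91%, and in gamma first exons 12.7% and 25.8%. These differences were not tested.

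**Figure D5:**
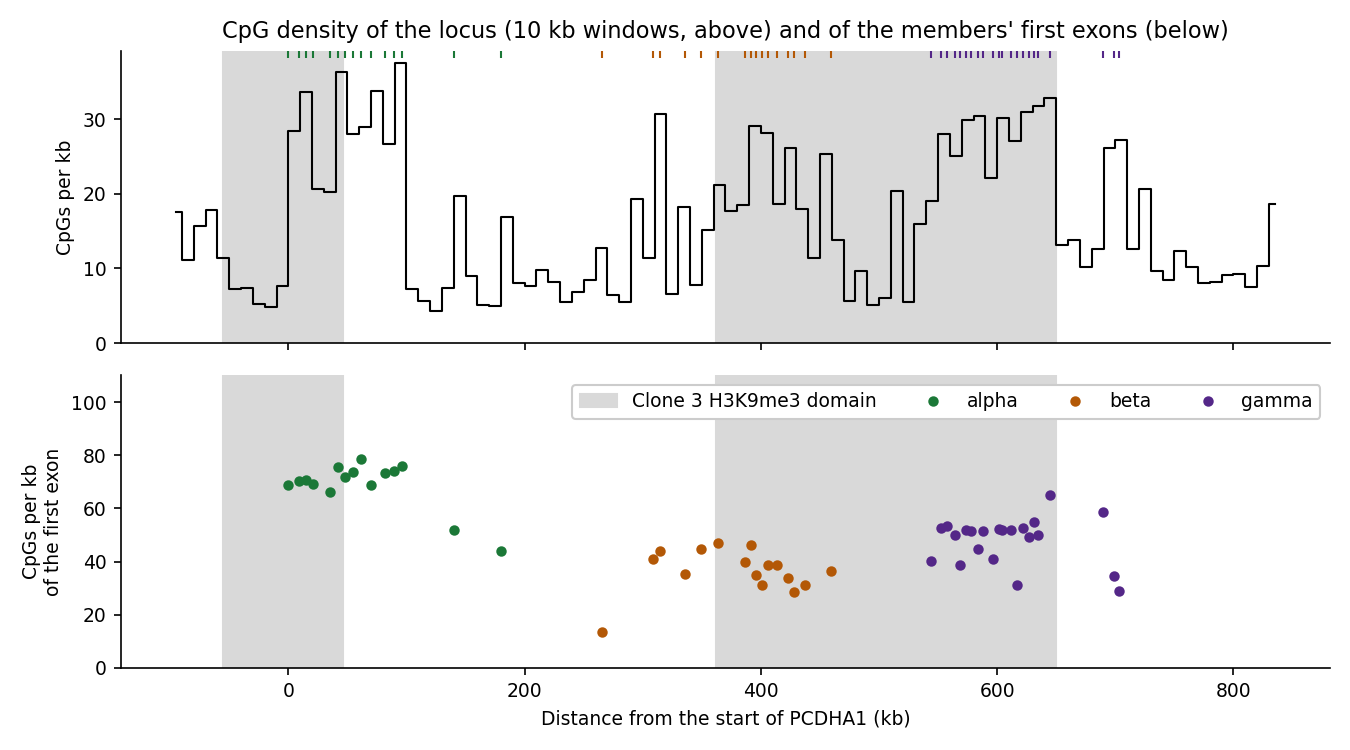
CpGs per kb in 10 kb windows across the locus (above, with ticks at the members' starts) and in the first exon of each member (below, coloured by cluster), by distance from the start of PCDHA1 in kb, with Clone 3 H3K9me3 domains shaded. The ranges of alpha, beta and gamma first exons overlap, for alpha only through the C-type members PCDHAC1 (51.9) and PCDHAC2 (43.8). The other alpha first exons lie between 66.0 and 78.5, above the highest beta (47.0) and gamma (65.0) values. Differences between the clusters were not tested. Within each cluster, points inside and outside the shading overlap.

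Similarity between members can affect how reads are placed. The share of 50-base words with another exact match in the genome was 6.84% in the alpha domain, 6.76% between the domains, 7.29% in the beta-gamma domain and 6.65% beyond it. Over first exons the median was 11.2% for the 36 members inside, with the highest value of 47.1% in PCDHB8, and 8.92% for the 17 outside, with the highest of 33.4% in PCDHA9. The 5 C-type members and PCDHGB3, an alternate gamma gene inside the domain, had 0%. PCDHA6 (32.9%) and PCDHA7 (30.8%), inside and outside, were alike in this respect. The part of such words in the calls was not tested.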

How the data were processed

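H3K9me3 and H3K27me3 ChIP-seq of HCT116 shUHRF1 clones without doxycycline was analysed from 5 domain sets. Per the paper and the submitters' processing notes, the authors trimmed reads with Trim Galore 0.5.0, aligned them to hg38 with Bowtie2 2.3.5, deduplicated them with samblaster and ran Enriched Domain Detector at default settings, keeping domains found in both replicates. The deposited positions are domain starts and ends on a 1 kb grid. The deposited clone sets also hold 2 scores per domain, used only for ranks. The methods state a minimum of read pairs per library, but the sets do not show the depth of each sample, and no precision was computed from it.

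The members are the GENCODE 44 genes given in the report. A member was in a domain by its start site, by at least 50% of its body, or by its first exon in the canonical transcript. Chromosome M was left out. CpGs, GC and 50-base words were counted in hg38, and promoters came from RefSeq (GRCh38.p14), where 27 of 47 starts equalled the GENCODE start and 43 lay within 50 bp. The 8-base words were picked after the promoters had been read. Genes named with values are the first and last member of each cluster, the C-type members, members nearest to domain edges and nearby or listed non-members. Others, such as PCDHA2 or PCDHGA9, were named to give a range, after their values had been seen. The members, lists and rules were chosen with earlier results of these data known. Alternatives were the canonical start, a window of 2 kb around the start, any overlap with the body, the whole body or the first exon, domains of at least 100 kb, the upper 50% of domains by their lower score, edges moved by 10 kb, domains under 20 kb apart joined, and spans from first to last start. No test was run. Interval functions were tested on simulated data, where 36000 of 36000 values equalled the known answer. Python 3.11.15, numpy 2.4.6, pandas 2.3.3 and matplotlib 3.10.9 were used.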

Additional observations from a re-analysis of the deposited data

How the results depend on the processing

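Of 117 H3K9me3 values recomputed under the alternatives, 101 stayed within 1.5 times of the value in the report. The 180 H3K27me3 values remained at 0, which these alternatives could not change, since the nearest domain lay 213 kb away. The alpha domain was the least firm. In the upper 50% of Clone 3 domains by their lower score, 0 alpha start sites and 0 kb of the alpha cluster lay in a domain, and the beta and gamma counts were 11 and 19. With edges moved outward by 10 kb, 8 alpha start sites lay inside, and with edges moved inward 5 did. The count of alpha and gamma bodies in a domain depends on its definition in both H3K9me3 sets. Any overlap gave 6 alpha and 19 gamma genes, as did the first exon, the whole body gave 0 gamma genes, and edges moved outward or inward by 10 kb gave 9 or 2 gamma genes. No paired analysis was possible because replicates were reduced to 1 set of common domains per clone and mark. Leaving out a replicate was not possible for the same reason. The depth of each sample and the signal within domains are not in the sets.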
